A study of Mus musculus with 7 samples.

Results

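The Notch pathway and the proneural transcription factors of mouse retina were examined as a set of 32 genes in a map of Argonaute-bound RNA. The genes were chosen by name, with earlier results of these data known. They were receptors, ligands, their processing enzymes and ubiquitin ligases, the nuclear complex, helix-loop-helix repressors and proneural factors. A crosslink position belonged to a gene when it lay inside the gene on the same strand in GENCODE M21 (mm10). This gave 61 of the 14054 positions in the table, and 18 of the 32 genes had at least 1, while 22.1% of all 21992 protein-coding genes had 1. That share covers every annotated protein-coding gene, whether or not the retina makes its RNA, and RNA level was not measured. No position lay in more than 1 gene on its strand.

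The positions come from PAR-CLIP, in which 4-thiouridine built into RNA is linked by ultraviolet light to a protein that touches it. CD-1 mouse retinas taken at birth (postnatal day 0) were cultured as explants for 24 h in medium with 0.1 mM 4-thiouridine and 20% horse serum, then irradiated at 365 nm. There were 5 libraries made with the anti-Argonaute antibody 2A8 and 2 made with a mouse IgG1 isotype control, each from 6 pooled retinas, and all had the same culture and irradiation. The score of a position is the number of Argonaute libraries that contained it, from 2 to 5. The deposited tables pool the Argonaute libraries and carry no IgG values. A difference therefore cannot be set against the spread between libraries, and the shares below are descriptions without a test. Intervals are exact 95% binomial intervals, cover counting error only and treat as separate the positions that share a gene. Read depth is unknown, and a gene enters the table only where a crosslink was found in at least 2 libraries. RNA that is scarce because few cells make it cannot be told apart from RNA that is scarce in each cell. Of the retinal progenitor markers, 7 of 10 had positions, including Pax6 and Ccnd1 but not Rax, Fgf15 or Sfrp2. Hes1, itself a gene of the set, is 1 of the 7. For photoreceptors it was 4 of 6 markers, for horizontal cells 2 of 3, for ganglion cells 3 of 5, for amacrine cells 2 of 5 and for bipolar cells 0 of 3. Of the pigment epithelium markers 0 of 4 had any, and of vessel and microglia markers 1 of 4 had, Kdr with 5. The share over all protein-coding genes was 22.1%, and these few markers do not measure cell make-up.

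Notch receptors are cut when a ligand on a neighbouring cell binds them, and the freed intracellular part joins the DNA-binding protein Rbpj and a Mastermind coactivator to switch on Hes and Hey repressors. These repressors hold down proneural factors, so a retinal progenitor with high Notch activity stays undifferentiated while a neighbour that makes ligand and proneural factors becomes a neuron. MicroRNAs guide Argonaute by pairing of their seed, bases 2 to 8, with messenger RNA. In PAR-CLIP the crosslinked base, read from the transcripts as T, tends to lie just before the stretch that pairs with the seed.

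The sites on which the results turn are printed here as DNA letters of the GENCODE M21 transcripts, 5′ to 3′, 26 nt each, with the crosslinked T as the sixth base. Capitals mark a seed match that starts from 1 nt before to 3 nt after the crosslinked base, counted from the base opposite microRNA base 8; where there is none, the capital marks the crosslinked T. Overlapping matches are joined. The first set holds the 5 positions in all 5 libraries outside Hes1, to show how differently the most recurrent sites are built.
Neurog2, 3′ UTR, chr3:127635086-127635111, plus strand: tctgatgTGCACTTTgtttttttccc
Lfng, 3′ UTR, chr5:140615460-140615485, plus strand: gatgatAAGGGAAaagctctcaggga
Notch2, 3′ UTR, chr3:98148168-98148193, plus strand: gaaccTgcaccttaatttctctcccc
Dll1, 3′ UTR, chr17:15367532-15367557, minus strand: gagtaTtttgtgacgttcattttttt
Maml1, 3′ UTR, chr11:50255912-50255937, minus strand: acacaTgtgctttgtgtaaataaatg
The second set holds the 5 Hes1 positions found in 3 or more libraries, which lie in 3 different parts of 1 short mRNA. The window of the coding sequence site spans a splice junction, so it has no single genome interval.
Hes1, 5′ UTR, 3 libraries, chr16:30065382-30065407, plus strand: ccctgtCTACCTCtctccttggtcct
Hes1, coding sequence, 4 libraries, crosslink at 30065911: ttggaTGCACTtaagaaagatagctc
Hes1, 3′ UTR, 3 libraries, chr16:30067597-30067622, plus strand: gaccaTGCACTGcatttgtatatatt
Hes1, 3′ UTR, 4 libraries, chr16:30067652-30067677, plus strand: tattaTaaaagttgagatgacatttc
Hes1, 3′ UTR, 5 libraries, chr16:30067705-30067730, plus strand: tgtgaTGCCAAAGAtgtttgaaaatg
The third set holds sites of other genes that share a seed, to let the shared letters be seen across ligands, targets and nuclear factors.
Neurog2, coding sequence, miR-17/20/93, chr3:127634405-127634430, plus strand: acagcTGCACTTTAtcgcccgctagc
Rbpj, 3′ UTR, miR-17/20/93, chr5:53655065-53655090, plus strand: atcccTGCACTTTggttattccttgt
Maml1, 3′ UTR, miR-17/20/93 and miR-130/miR-301, chr11:50256837-50256862, minus strand: tgacTTGCACTTTtaaagtggtttta
Dll1, 3′ UTR, miR-15/16 and miR-103/miR-107, chr17:15367942-15367967, minus strand: atgaATGCTGCTgagagaggaaggga
Rbpj, 3′ UTR, miR-15/16, chr5:53655370-53655395, plus strand: cagcgtTGCTGCTttcactcgctgtc
Jag2, 3′ UTR, miR-30, chr12:112908535-112908560, minus strand: gtcgcTGTTTACAgaatcttcttttt
Maml1, 3′ UTR, miR-30, chr11:50255893-50255918, minus strand: ataaaTGTTTACAattttatattgaa
Dll1, 3′ UTR, miR-26, chr17:15367745-15367770, minus strand: acgagtgACTTGAttcatataggaag
Hes6, 3′ UTR, miR-26, chr1:91411911-91411936, minus strand: acagatgACTTGAAtgacaaccctaa

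The microRNAs whose seeds these sites match are given from RefSeq (GRCm38.p6), 1 for each family, with the seed in capitals. A 7mer site reads as the reverse complement of the capitals, with T for U; a 6mer site lacks the pair with base 8.
miR-17-5p: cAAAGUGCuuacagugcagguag
miR-130a-3p: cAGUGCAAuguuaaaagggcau
miR-16-5p: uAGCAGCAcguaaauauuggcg
miR-103-3p: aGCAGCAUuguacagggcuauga
miR-30a-5p: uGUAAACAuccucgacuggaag
miR-26a-5p: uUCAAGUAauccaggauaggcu
miR-9-5p: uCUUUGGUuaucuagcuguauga
let-7a-5p: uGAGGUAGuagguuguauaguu
miR-148a-3p: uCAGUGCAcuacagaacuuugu
miR-204-5p: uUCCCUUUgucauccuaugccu
miR-96-5p: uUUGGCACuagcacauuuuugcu
miR-182-5p: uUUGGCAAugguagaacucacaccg
The seeds of miR-17 and miR-130 overlap by a shift of 2 bases, as do their sites, and those of miR-16 and miR-103 by a shift of 1. In the miR-17/20/93 sites printed for Neurog2 and Rbpj, the first capital T belongs only to an overlapping 6mer of miR-130/miR-301. In all, 33 families were searched; miR-124 was not among them.

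Across the 32 genes, 49 of the 61 positions lay in 3′ UTRs (80.3%, 68.2 to 89.4), where 52.1% of all positions in the table lay. All positions include those in noncoding exons and outside genes, and none of the 61 was of these classes. Coding sequence held 4 (6.56%, beside 20.9% of all positions), introns held 6 (9.84%, beside 17.9%; none was in 3 or more libraries, beside 8.97% of all intronic positions) and 5′ UTRs held 2, both in Hes1 (3.28%, beside 0.761%). There were 37 positions in 2 libraries, 12 in 3, 6 in 4 and 6 in 5. The share in 3 or more libraries was 24 of 61 (39.3%, 27.1 to 52.7), beside 25.6% of all positions, in 4 or more it was 12 of 61 (19.7%, 10.6 to 31.8), beside 9.81%, and in all 5 it was 6 of 61 (9.84%, 3.70 to 20.2), beside 3.47%. Among 3′ UTR positions alone, 21 of 49 (42.9%, 28.8 to 57.8) were in 3 or more libraries, beside 32.9% of all 3′ UTR positions. Hes1 and Dll1 gave 10 of the 24; without both genes the share in 3 or more libraries was 31.1% (18.2 to 46.6).

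**Figure D1:**
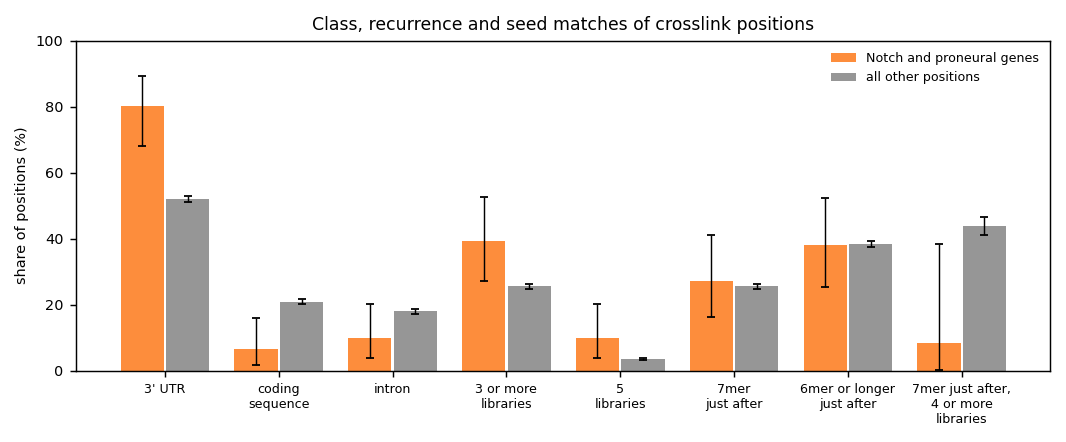
Share of crosslink positions (%) by class, recurrence and seed match, for the Notch and proneural genes (left bar of each pair) and for all other positions (right bar); error bars are exact 95% binomial intervals and cover counting error only. The 3′ UTR bar stands at 80.3% for the Notch and proneural genes. Their last bar, for a 7mer at exonic positions in 4 or more libraries, stands at 8.33%. All other positions include those in noncoding exons and outside genes.

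A position in 3 or more libraries was present in 10 of the 32 genes, while 9.56% of all protein-coding genes had one. That is 10 of the 18 with any position, beside 43.2% of all crosslinked protein-coding genes. These were Notch1, Notch2, Dll1, Lfng, Mib1, Maml1, Hes1, Hes5, Hes6 and Neurog2. Mib1 had 10 positions, Hes1 and Dll1 had 8 each, and together they held 42.6% of the 61. The other crosslinked genes had 1 to 6. The 14 genes with no position were Notch3, Dll3, Dll4, Jag1, Mfng, Rfng, Dtx1, Dtx3, Numb, Numbl, Hey1, Olig2, Id1 and Id3; no position lay on their other strand or in intergenic sequence within 5000 nt after their end.

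**Figure D2:**
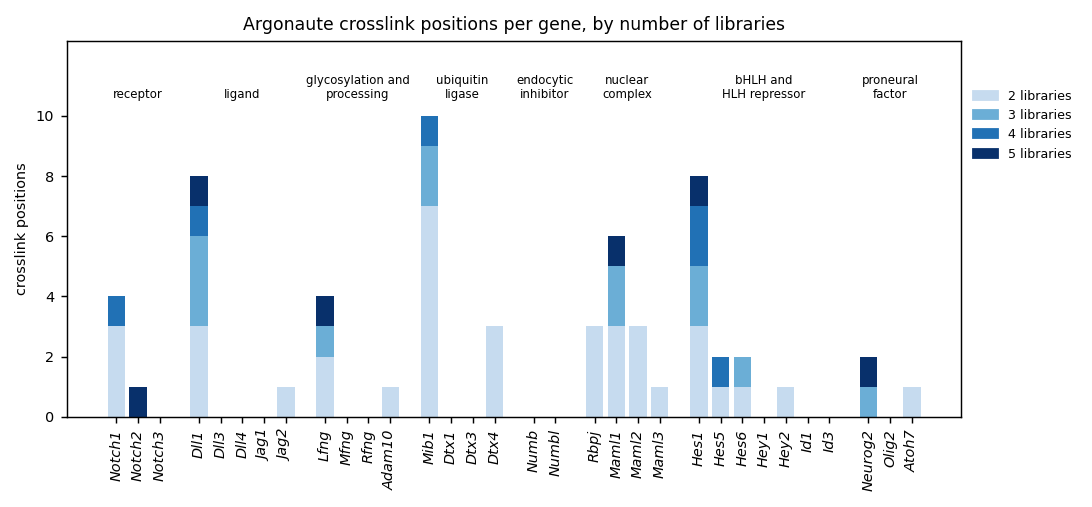
Number of crosslink positions (vertical axis) in each of the 32 genes, ordered by role, with shades for the number of Argonaute libraries that contained a position. Mib1 has the tallest bar, with 10, and both endocytic inhibitors have none.

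Of the receptors, Notch1 had 4 positions and Notch2 had 1, all in 3′ UTRs in the last of 34 exons. The Notch2 position, at 98148173 on chromosome 3, was found in 5 libraries and lay 729 nt after the stop codon in a UTR of 2917 nt. The Notch1 positions lay 121, 174, 351 and 370 nt after the stop codon of a 1628 nt UTR. Only the last of the Notch1 positions, at 26459161 on chromosome 2, recurred beyond 2 libraries, with 4. No position of either receptor had a seed match of a searched family at the crosslink. The nearest in Notch1 was a 7mer of miR-34/miR-449 that started 13 nt after the position at 26459357. An annotated gene on the other strand, 0610009E02Rik, overlaps 3 of the 4 Notch1 positions.

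Of the ligands, Dll1, which is made by newly formed neurons, had 8 positions and Jag2 had 1. All 8 of Dll1 lay in a 3′ UTR of 676 nt, from 64 to 495 nt after the stop codon, a density of 11.8 per kb. The most recurrent, at 15367552 on chromosome 17, was in 5 libraries and 478 nt after the stop. The position at 15367699 was in 4, those at 15367765, 15367962 and 15367966 were in 3, and 3 more were in 2. The positions at 15367962 and 15367966 lie 4 nt apart at 1 joint site of miR-15/16 and miR-103/miR-107 and are not separate sites. The position at 15367765 had a 6mer of miR-26. The positions of Dll1 in 4 and 5 libraries had no searched seed at the crosslink. Jag2 had a position in 2 libraries, at 112908555 on chromosome 12, at the first base of an 8mer of miR-30, that is, the 7mer followed by A.

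Of the enzymes that modify or cut the receptor, Lfng, a sugar transferase that changes how Notch responds to its ligands, had 4 positions. They lay 795, 957, 992 and 1022 nt after the stop codon of a 1072 nt UTR, so all were beyond 74.2% of its length. The position at 992 nt, at 140615465 on chromosome 5, was in 5 libraries, that at 1022 nt in 3 and both others in 2. At the position in 5 libraries the crosslinked T stood opposite base 8 of miR-204/miR-211, so the match was a 6mer followed by A. An 8mer of miR-125 began 13 nt after the same T. Adam10, the protease that makes the first ligand-induced cut, had 1 position in 2 libraries with a 7mer of miR-25/92 starting at the next base.

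Mib1, the ubiquitin ligase that drives uptake of bound ligand, had 10 positions, all in a 3′ UTR of 6453 nt, or 1.55 per kb. The one at 10816160 on chromosome 18 was in 4 libraries, those at 10814555 and 10816119 were in 3, and 7 were in 2. An 8mer of miR-101 started at the base after 10816119, and a joint site of miR-15/16 and miR-103/miR-107 covered 10815240. At 10814555 a 6mer of miR-130/miR-301 began at the crosslinked base. No searched seed lay at the position in 4 libraries. Dtx4, of the Deltex ligase family, had 2 positions in its 3′ UTR and 1 in an intron, each in 2 libraries and none with a seed match at the crosslink.

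All 4 genes of the nuclear complex had positions, but those of Maml2 (3) and Maml3 (1) were intronic and in 2 libraries. Maml1 had 6. Its position at 50255932 on chromosome 11, 1917 nt after the stop codon, was in 5 libraries and had no searched seed at the crosslink. The position 19 nt further on, at 50255913, was in 3 libraries and began an 8mer of miR-30. The position at 50256857, also in 3, lay in a joint site of miR-130/miR-301 and miR-17/20/93. A coding sequence position at 50265647, in 2 libraries, had a 7mer of miR-9 starting 4 nt after it, just outside the range used. An annotated noncoding gene on the other strand, Gm26542, overlaps all 6 Maml1 positions. Rbpj had 2 positions in its 3′ UTR, with 7mers of miR-17/20/93 and of miR-15/16, and 1 in an intron, all in 2 libraries. Its miR-17/20/93 7mer overlapped a 6mer of miR-130/miR-301, and its miR-15/16 7mer overlapped a 6mer of miR-103/miR-107.

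Of the repressors, Hes1, the main Notch effector in retinal progenitors, had 8 positions in an mRNA with a 3′ UTR of only 368 nt, where 5 of them lay within 138 nt. The position at 30067710 on chromosome 16, 282 nt after the stop codon, was in 5 libraries. There a 6mer of miR-9 (pairing with bases 2 to 7) followed by A began 2 nt after the crosslink, and microRNA base 8 had no Watson-Crick partner. The overlapping letters held a 6mer of miR-96 and miR-182, also followed by A; these microRNAs share bases 2 to 7. Hes1 is a known target of miR-9 in mouse neural progenitors, and no full miR-9 7mer is present in its 3′ UTR. The position at 30067657 was in 4 libraries and that at 30067602, at a 7mer of miR-148/miR-152, was in 3. That 7mer overlapped a 6mer of miR-130/miR-301.

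Outside its 3′ UTR, Hes1 had a coding sequence position in 4 libraries, at 30065911 in exon 2 of 4, with a 6mer of miR-130/miR-301. It also had both 5′ UTR positions of the set. The one at 30065387, in 3 libraries, lay 48 nt from the 5′ end of the transcript and was followed directly by a 7mer of let-7, CTACCTC. The other, at 30065552, was in 2 libraries and had no searched seed at the crosslink.

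The remaining repressors had fewer positions. Hes5, also induced by Notch, had 2, at 154962289 in 4 libraries and at 154962319 in 2, 614 and 644 nt after the stop codon of a 696 nt UTR, and without a searched seed. Hes6, which opposes Hes1 and favours neuronal differentiation, had a 3′ UTR position in 3 libraries, at 91411931 on chromosome 1, with a 6mer of miR-26 followed by A, and a coding sequence position in 2. The miR-26 sites of Hes6 and Dll1 share their 6mer, and in both microRNA base 8 had no Watson-Crick partner. Hey2 had 1 position in 2 libraries, 49 nt from the end of its UTR, followed by an 8mer of miR-153. Id1 and Id3, which bind bHLH partners without binding DNA, had none.

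Of the proneural factors, Neurog2 had 2 positions, and both had a seed match of miR-17/20/93 and an overlapping 6mer of miR-130/miR-301. The 3′ UTR position at 127635091 on chromosome 3, 571 nt after the stop codon, was in 5 libraries, and the 7mer began 3 nt after it. The coding sequence position at 127634410, in exon 2 of 2, was in 3 libraries, and an 8mer began at the next base. Atoh7, needed to form ganglion cells, had 1 position in 2 libraries and no seed match within the range used. A 6mer of miR-23 covered the crosslink, with the base opposite microRNA base 8 lying 2 nt before it. Olig2 had no position.

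**Figure D3:**
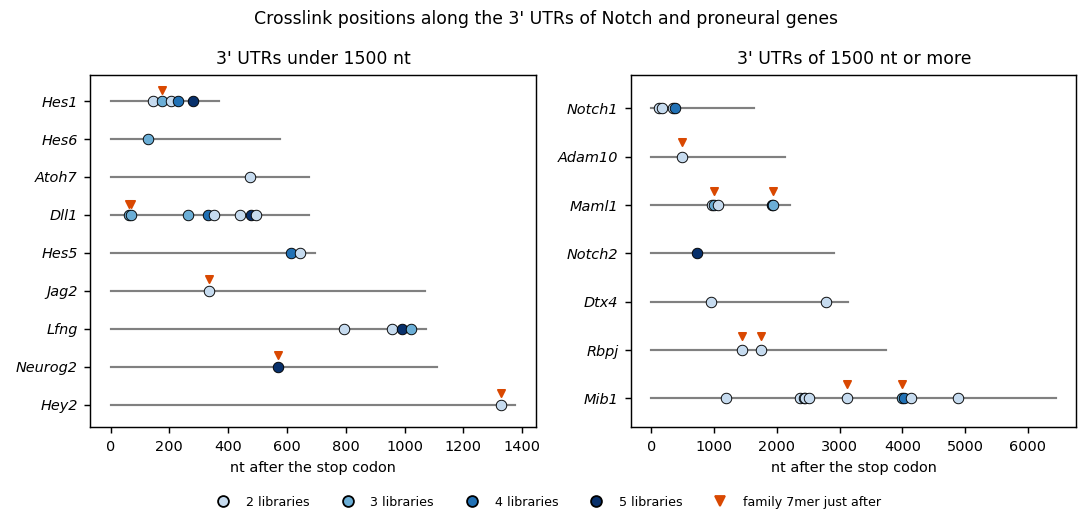
Crosslink positions of the 16 genes with a position in the 3′ UTR, by distance from the stop codon (nt, horizontal axis, to scale within each panel). Grey lines are the UTRs, shades give the number of libraries and triangles mark a family 7mer just after the crosslink. The positions of Hes1, Notch1 and Lfng lie in short runs. Those of Dll1 are spread from 64 to 495 nt of a 676 nt UTR, and those of Mib1 from 1186 to 4886 nt of a 6453 nt UTR.

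Positions lay close together within the 3′ UTRs. The gap between neighbours in a UTR had a median of 53.0 nt over 33 gaps in the Notch and proneural genes, beside 217 nt over 3951 gaps in other genes. Mib1, Dll1 and Hes1, with 10, 8 and 5 positions in their 3′ UTRs, gave most of the 33. The UTRs of Dll1 and Hes1 are only 676 and 368 nt long, and 1 gap of Dll1 is the 4 nt within its joint site. The 16 genes with a 3′ UTR position had UTRs of median 1240 nt and a median of 1.52 positions per kb; 3325 transcripts with such a position outside the set had medians of 2130 nt and 0.823 per kb. The median place along the UTR, from stop codon to end, was 48.3% of its length, beside 46.1% elsewhere, and the A and T content of 41 nt around the crosslink was 63.4% in both. The part of UTR length in these gaps was not tested.

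A full 7mer of a searched family began within the range of 1 nt before to 3 nt after the crosslink at 15 of the 55 exonic positions (27.3%, 16.1 to 41.0), beside 25.5% of all 10989 exonic positions with sequence. A 7mer pairs with microRNA bases 2 to 8. With 6mers, of bases 2 to 7, counted too, the share was 38.2% (25.4 to 52.3), beside 38.5%. In ranges of equal width away from the crosslink, the 7mer shares were 5.45% in the set and 2.28% over all exonic positions at 12 to 16 nt after it, and 1.82% and 2.38% at 17 to 13 nt before it. The 15 positions lay in 9 genes. The families were miR-17/20/93 at 4 positions, miR-15/16 and miR-103/miR-107 at 3 each, miR-30 at 2, and let-7, miR-25/92, miR-130/miR-301, miR-153, miR-101 and miR-148/miR-152 at 1 each, some at the same position. Over all exonic positions, these shares were 2.66% for miR-17/20/93, 2.36% for miR-15/16, 0.837% for miR-103/miR-107 and 1.77% for miR-30. The miR-103/miR-107 positions of the set include both Dll1 positions at 1 joint site, which are not separate sites. Families with no 7mer at a position of the set included miR-181, miR-19 and miR-26, which had one at 2.53%, 2.25% and 2.00% of all exonic positions. Of the 15 positions, 5 had an 8mer. The most frequent start was the base after the crosslink, at 8 positions (14.5%), as it was for other positions (18.0%).

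**Figure D4:**
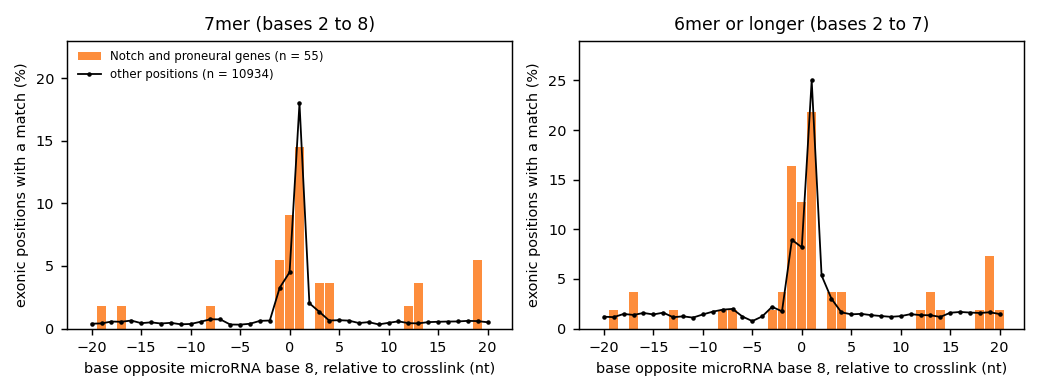
Share of exonic positions (%) with a family match by the place of the base opposite microRNA base 8 relative to the crosslink (nt), for 7mers (left) and for 6mers or longer (right). Bars are the 55 positions of the Notch and proneural genes and the line is 10934 other exonic positions; both are highest 1 nt after the crosslink.

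At exonic positions of the Notch and proneural genes, a 7mer was present at 6 of 31 in 2 libraries, 8 of 12 in 3, 0 of 6 in 4 and 1 of 6 in 5. The 8 in 3 libraries include both Dll1 positions at 1 joint site. Over all exonic positions, the share was 20.1% in 2 libraries, 34.9% in 3, 42.1% in 4 and 46.1% in 5. In 3 or more libraries together, a 7mer was present at 9 of 24 positions of the set (37.5%, 18.8 to 59.4), beside 38.4% of all such positions, and with 6mers 62.5%, beside 52.7%. In 4 or more libraries one was present at 1 of 12 positions of the set (8.33%, 0.211 to 38.5), beside 43.5% of all such positions, and with 6mers 4 of 12 (33.3%, 9.92 to 65.1), beside 58.0%. The 8 without any were in Notch1, Notch2, Dll1 (2 positions), Mib1, Maml1, Hes1 and Hes5. The split by libraries was made after the values were seen, and these few positions leave a wide interval.

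Most seed matches in these 3′ UTRs had no crosslink. The 32 UTRs held 176 family 7mers, and 15 had a crosslink at their start. In the 16 genes with a 3′ UTR position the count was 15 of 114 (13.2%, 7.56 to 20.8), beside 7.59% of 30512 in other genes with such a position. Among the 15, joint sites in Dll1, Maml1 and Mib1 count once for each of their families. The genes of the set also had more 3′ UTR positions per kb (median 1.52, beside 0.823), and the part of this density in the shares was not tested. All 32 UTRs together held 4 matches of miR-17/20/93, of which 3 were crosslinked, and 10 of miR-15/16, of which 3 were. miR-34/miR-449, known to act on Notch1 and Jag1 in human cancer cells, had the most matches, 13 in 8 genes, 3 of them in Notch1, and none had a crosslink. miR-128 had 12 in 11 genes, also with none. Outside the set, 1.05% of miR-34/miR-449 matches and 0.995% of miR-128 matches were crosslinked, against 18.0% for let-7 and 20.2% for miR-17/20/93. The 14 genes with no position had 40 matches in 13180 nt, or 3.03 per kb, and the 18 with positions had 3.72 per kb.

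**Figure D5:**
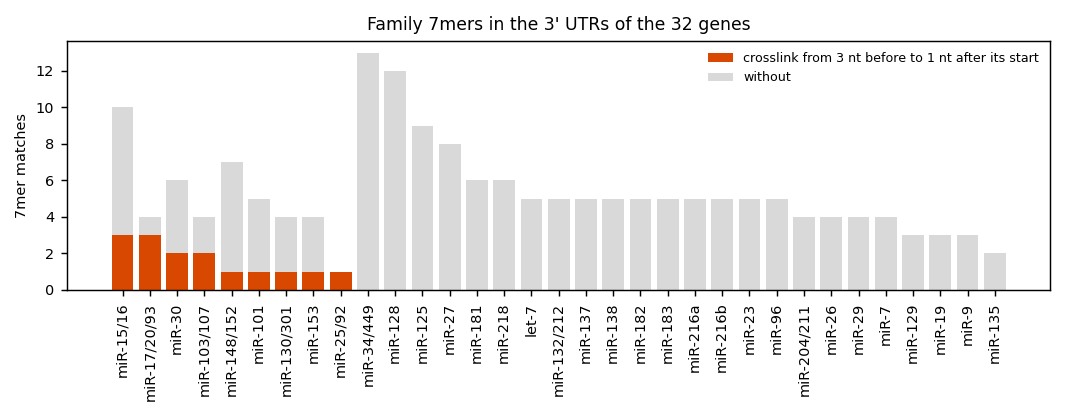
Number of 7mer matches of each searched family (vertical axis) in the 3′ UTRs of the 32 genes, split by whether a crosslink lay at the start of the match. miR-15/16 and miR-17/20/93 have 3 crosslinked matches each; the 13 matches of miR-34/miR-449 have none.

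The series asks about miR-216b, and 1 gene of the set, Hes1, had an entry in the deposited list of miR-216 sites; of all crosslinked protein-coding genes, 6.85% had one. The entry lies at chr16:30067664-30067669 in the Hes1 3′ UTR, is named for miR-216a and is linked to the crosslink at 30067657, 7 nt before it, in 4 libraries. It is shown with its flanks, the deposited interval in capitals, to let the pairing be read.
Hes1 miR-216 entry: taaaagtTGAGATgacatttcgt
The interval pairs with bases 3 to 8 of miR-216a, and base 2 has no Watson-Crick partner, so it is neither a 6mer of bases 2 to 7 nor a 7mer. Full 7mers of miR-216a were present in the UTRs at 5 places in 5 genes and of miR-216b at 5 places in 4 genes, none with a crosslink.

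Of 65 further genes of the pathway and of proneural factors and their partners, 32 had a position and 19 had one in 3 or more libraries. Over all protein-coding genes, 22.1% had a position and 9.56% had one in 3 or more libraries. These further genes were also listed with earlier results of these data known. Among 50 Notch genes, 23 had a position and 11 had one in 3 or more libraries. Tle4, a Groucho corepressor that Hes proteins recruit, had 11 positions, of which 1 was in 5 libraries at an 8mer of miR-15/16, and a miR-216 entry. Nedd4, a ubiquitin ligase, had 19 positions, 11 of them in coding sequence and none beyond 3 libraries. Itch, another such ligase, had a position in 4 libraries at a 7mer of miR-17/20/93, and the protease Adam17 had 1 in 4 libraries without a searched seed. Fbxw7, which marks the Notch intracellular part for destruction, and Hdac2, a histone deacetylase, had 4 positions each. Among the 15 proneural genes and partners the counts were 9 and 8. Neurod1 had 24 positions and Neurod4 had 14, both bHLH factors of differentiating neurons. Of the E proteins that pair with proneural factors, Tcf4 had 10 positions and Tcf12 had 7, with 1 in 5 libraries at an 8mer of miR-204/miR-211. Id2 and Id4 had 2 positions each, 1 of them in 3 libraries in either gene.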

How the data were processed

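PAR-CLIP libraries were made from retina explants, 5 with an Argonaute antibody and 2 with IgG. Per the submitters' processing notes, the mm10 build was used with STAR, bedtools and CASAVA 1.8.2; how crosslinks were called is not given here. In the authors' deposited table the score counts, per the file headers, the Argonaute samples with that crosslink; the table of miR-216 sites has no header and its score was read from its values. Both tables pool the Argonaute libraries.

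Each position took the class of its gene's transcripts on that strand in GENCODE M21: a 3′ UTR went before coding sequence, then came 5′ UTR, noncoding exon and lastly intron; sequence after the stop codon of decay transcripts was not taken as 3′ UTR. Sequence came from spliced transcripts, so introns were not searched. All 10989 exonic positions with sequence fell on T; 3 had none. UTR lengths are those of 1 principal transcript per gene with at least 100 nt of UTR. Seeds of 33 microRNA families were taken from RefSeq (GRCm38.p6) and matched as 7mers (bases 2 to 8), with 6mers and 8mers as alternatives. miR-216 entries were linked to crosslinks within 20 nt. The code was tested on simulated transcripts. Python 3.11.15, pandas 2.3.3 and scipy 1.17.1 were used.

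Genes, families and gene lists were chosen with earlier results of these data known. Every gene of the set is accounted for. Positions are described singly where found in 3 or more libraries, linked to a miR-216 site or at a family 7mer; other pathway genes are named for a position in 4 or more libraries or, up to 10, for the most positions. A few genes and positions outside this rule were named after their values were seen. Some genes that the rule names are not reported here. Alternatives changed the number of libraries, strand, merging of positions within 5 nt, class order, match type and range.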

Additional observations from a re-analysis of the deposited data

How the results depend on the processing

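With only positions in 3 or more libraries, 10 genes of the set, 24 positions and 19 of the further pathway genes remained, against 18, 61 and 32 in the full table. Counting only 8mers, the share with a seed match just after the crosslink was 9.09%, beside 14.4% of all exonic positions. The share stayed between 20.0% and 38.2% under the other 8 alternatives for it. The 3′ UTR share was between 76.5% and 87.5% in the alternatives tried and the share in 3 or more libraries between 31.1% and 42.9%; the other counts were within 1.5 times of those reported. Leaving out Mib1, or Hes1 and Dll1, and counting a 6mer followed by A were alternatives added with the values known. The files hold no values of single libraries. No paired analysis was possible because of this, nor could results be recomputed without one of them. The number of libraries is a coarse measure, and RNA level was not measured here.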

Other observations

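Away from the crosslink, a family 7mer began 19 nt after it at 3 of the 55 exonic positions of the Notch and proneural genes (5.45%), beside 0.594% of 10934 other exonic positions. They were the Maml1 position in 5 libraries, before the miR-30 8mer that has its own crosslink, and positions in 2 libraries of Hes6 (miR-96) and Mib1 (miR-26). This distance was picked after its value was seen.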
